A study of Mus musculus with 6 samples.

Results

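Pleiotrophin (Ptn), midkine (Mdk) and 7 genes for their receptors and co-receptors were followed in 6 RNA-seq libraries of mouse embryonic fibroblasts (MEFs), connective-tissue cells grown out of embryos. The 9 genes, Ptn, Mdk, Ptprz1, Alk, Lrp1, Sdc1, Sdc2, Sdc3 and Sdc4, were taken by symbol from the 55487 genes of the deposited tables, and 8 of them passed the filter on low counts (Alk did not). The set was chosen by values of these same libraries, since the levels and the changes with genotype and passage were known when the genes were listed. The values below are therefore a description. No p-value is printed for the level of any of these genes, and counts of calls among them are given with nothing read from them. A test was made of transcript length. The p-values of other pathway genes are adjusted over all genes, and those lists too were made with earlier results of these libraries known. The libraries were knockout (KO) MEFs at passages 2, 3 and 4 and wild-type (WT) MEFs at the same passages, 1 library each, where a passage is 1 round of detaching and replating the cells. All were untreated. The labels call every library a control and give neither the knocked-out gene nor the strain, the embryos' age or the number of cultures. The 3 libraries of a genotype may therefore come from 1 culture, and each SD, SE and p-value covers just the variation among these 6 libraries, which for an SD also spans passages 2 to 4. The genotype was read from the titles. A separate genotype tag reads WT for 2 of the KO-titled libraries, those of passages 3 and 4.

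Depth ran from 27361852 to 67760880 expected counts in the KO libraries and from 24853121 to 42335628 in the WT libraries. All 10 fibroblast markers, among them Col1a1, Vim and Pdgfra, were present in every library. Xist, transcribed from the inactive X chromosome, had 45.6 to 66.4 TPM (a level scaled for transcript length and library total) in the KO libraries and 0.01 to 0.07 TPM in the WT libraries. The Y-linked Ddx3y had 0 to 0.42 TPM in the KO libraries and 35.5 to 46.5 TPM in the WT libraries. Xist and Ddx3y followed the titles in 6 of 6 libraries, and for every comparison below genotype and sex cannot be told apart. The KO library of passage 4 had a trace of Y-linked transcripts (0.42 TPM of Ddx3y, 0.72 of Eif2s3y, 0.32 of Uty and 0.05 of Kdm5d). In KO at passages 2 and 3 none of these exceeded 0.04 TPM. The source of that trace was not tested. In bulk RNA, fewer cells of a type and less RNA per cell cannot be told apart either.

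Pleiotrophin and midkine are small, secreted, heparin-binding growth factors that together form a family. Both bind the sulfated sugar chains of cell-surface proteoglycans and are concentrated there. PTPRZ1 is a receptor tyrosine phosphatase carrying chondroitin sulfate, best known from glia, and pleiotrophin binding lowers its phosphatase activity. ALK is a receptor tyrosine kinase and LRP1 a large endocytic receptor that binds midkine. The syndecans are transmembrane proteoglycans that carry heparan sulfate and act as co-receptors. Pleiotrophin is known as a product of mesenchymal cells in embryos, with effects on neurite outgrowth, bone and vessels.

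The promoters of Ptn and Ptprz1 are shown because the transcripts of this ligand and this receptor were both higher at each later passage. Each line gives 250 bases before to 50 bases after the RefSeq start (build GRCm38.p6), 5′ to 3′ on the gene's strand. Capitals mark matches, on either strand, to the CCAAT box (CCAAT) or the SP1 GC box (GGGCGG).
Ptn, chr6:36810130-36810429, minus strand: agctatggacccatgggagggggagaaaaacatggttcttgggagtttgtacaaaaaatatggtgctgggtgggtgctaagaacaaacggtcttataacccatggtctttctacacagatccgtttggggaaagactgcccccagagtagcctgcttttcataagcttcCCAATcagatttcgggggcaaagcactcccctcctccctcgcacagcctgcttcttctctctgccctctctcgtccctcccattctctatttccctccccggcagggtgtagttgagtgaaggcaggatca
Ptprz1, chr6:22875252-22875551, plus strand: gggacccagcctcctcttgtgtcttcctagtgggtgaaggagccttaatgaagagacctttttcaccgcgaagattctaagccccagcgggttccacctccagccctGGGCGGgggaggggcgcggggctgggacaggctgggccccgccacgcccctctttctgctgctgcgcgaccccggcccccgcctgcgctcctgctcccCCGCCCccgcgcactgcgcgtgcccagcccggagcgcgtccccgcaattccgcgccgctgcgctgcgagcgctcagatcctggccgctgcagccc
The start used for Ptprz1 is the same as in the GENCODE annotation, and that for Ptn lies 41 bases from it. The Ptn promoter held 1 CCAAT box, starting 81 bases before the start, and no GC box. The Ptprz1 promoter held 2 GC boxes, starting 143 and 45 bases before the start, and no CCAAT box. Of 32851 promoters in the RefSeq table, 37.4% held CCAAT and 35.7% held GGGCGG. No match to the AP-1 motif (TGANTCA, in 7.81% of promoters), the TATA box (TATAAA, 13.6%) or the hypoxia response core (ACGTG, 19.6%) was found in either window. The promoters also differed in composition. The Ptprz1 window was 71.7% G+C with 29 CpG dinucleotides, and the Ptn window was 52.0% G+C with 6, against medians of 52.7% and 7 over all promoters. Of the 9 genes, 7 were matched in that table.

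The ligands differed in how they varied. Ptn was lower in KO than in WT at each passage and was higher at each later passage in both genotypes, whereas Mdk stayed within a narrow range in WT and was lower in KO, mainly at passages 3 and 4. Of the 8 filtered genes, Ptn and Mdk had a lower TPM in KO than in WT at each passage, as did 13.5% of all genes tested. Ptn (ENSMUSG00000029838, GRCm38 chromosome 6, 36714929 to 36810220, minus strand) had 56.8, 88.7 and 606 TPM in the KO libraries of passages 2, 3 and 4. In the WT libraries of the same passages it had 212, 348 and 1039 TPM. Passage 4 was the highest in each genotype, and the genotypes overlapped, since KO cells at passage 4 exceeded WT cells at passages 2 and 3. The level in KO was 0.268, 0.255 and 0.583 times that in WT at passages 2, 3 and 4. Passage 4 was 10.7 times passage 2 in KO and 4.9 times in WT. Most of that lay after passage 3, with ratios of 6.83 in KO and 2.98 in WT between passages 4 and 3. At passage 4 it ranked 183rd in KO and 90th in WT among 21974 protein-coding genes by TPM, and at passage 2 it ranked 2451st in KO and 507th in WT.

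Mdk (ENSMUSG00000027239, chromosome 2, 91929805 to 91932297, minus strand) had 92.2, 61.5 and 75.6 TPM in the KO libraries of passages 2, 3 and 4, against 97.5, 102 and 102 TPM in the WT libraries. All KO values lay below all WT values on the TPM scale, the nearest being passage 2 in both. That gap depended on the scale. Library-scaled counts (TMM-scaled CPM) are scaled between libraries in another way than TPM and are not adjusted for length. The mean transcript length of Mdk varied by 0.274% of its mean over the 6 libraries. By TMM-scaled CPM Mdk had 38.4, 23.3 and 26.7 CPM in KO and 36.6, 46.0 and 42.9 CPM in WT, and the groups overlapped. Non-overlap of the genotypes was found for 1 of the 8 filtered genes by TPM (22.7% of all genes tested, and 6.58% with KO below WT) and for 0 of 8 by CPM (27.1%). Its mean was 76.4 ± 15.3 TPM in KO and 101 ± 2.59 TPM in WT (SD, n = 3 each).

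The balance between the ligands differed by passage. Ptn made up 38.1%, 59.0% and 88.9% of the summed Ptn and Mdk TPM in the KO libraries of passages 2, 3 and 4, and 68.5%, 77.4% and 91.0% in the WT libraries. Mdk was thus the more abundant ligand transcript in KO cells at passage 2, and Ptn in the other 5 libraries. The sum itself was 149, 150 and 681 TPM in KO and 310, 450 and 1141 TPM in WT.

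**Figure D1:**
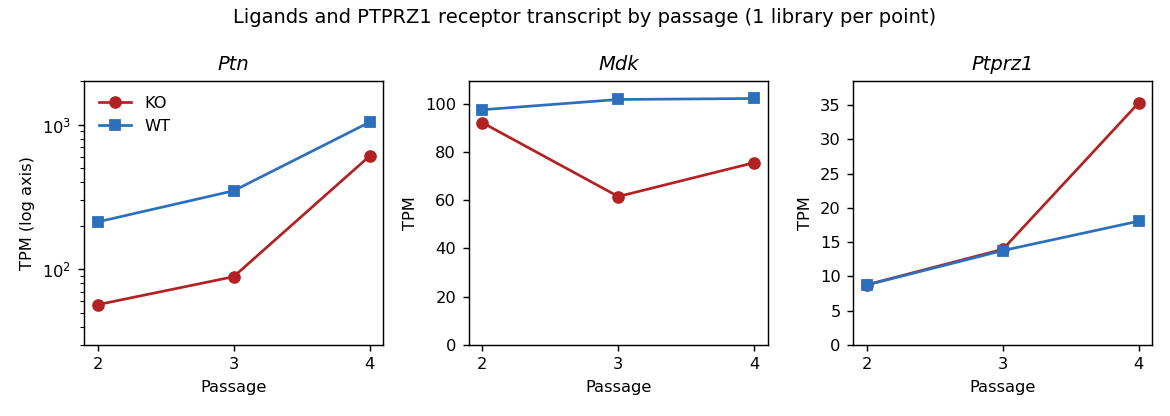
Levels of Ptn (log axis), Mdk and Ptprz1 in TPM by passage, 1 library per point, with KO as red circles and WT as blue squares. Ptn is higher at each later passage in both genotypes with KO below WT at each passage, Mdk is lower in KO at passages 3 and 4, and Ptprz1 separates at passage 4 only, with 35.4 TPM in KO and 18.1 TPM in WT.

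Among the receptors, Ptprz1 was also higher at each later passage in both genotypes. It lies on the same chromosome as Ptn, 13.7 Mb away (ENSMUSG00000068748, chromosome 6, 22875502 to 23052916, plus strand). Its level was 8.77, 13.9 and 35.4 TPM in KO at passages 2, 3 and 4, and 8.74, 13.8 and 18.1 TPM in WT. The genotypes were nearly level at passages 2 and 3, and KO was 1.96 times WT at passage 4. PTPRZ1 is abundant in glia, so 10 markers of glia and their precursors were read beside it. Of these, 9 were above 0 in all 6 libraries, and the oligodendrocyte factor Olig2 had at most 0.02 TPM. Their summed level was 29.4, 26.4 and 18.6 TPM in KO and 31.9, 26.0 and 12.2 TPM in WT at passages 2, 3 and 4. Sox10, the defining factor of Schwann cells and their precursors, had 6.12, 5.63 and 3.53 TPM in KO and 7.0, 5.48 and 2.20 TPM in WT. Glial markers were thus lowest at passage 4, where Ptprz1 was highest.

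Alk (ENSMUSG00000055471, chromosome 17) was close to the limit of detection. It had 1, 7 and 4 expected counts in KO at passages 2, 3 and 4 and 2, 6 and 9 in WT, which is 0.01 to 0.06 TPM in KO and 0.02 to 0.13 TPM in WT. Counts this small allow no comparison of its level or its transcripts between genotypes or passages. A limit of 3 counts corresponds to 0.0443 to 0.11 CPM of total counts in KO and 0.0709 to 0.121 CPM in WT, for counting error only. Lrp1 (ENSMUSG00000040249, chromosome 10, 127538161 to 127621148, minus strand) was abundant and varied little by TPM. It had 286, 238 and 282 TPM in KO and 286, 262 and 287 TPM in WT, and the highest library exceeded the lowest 1.2-fold. By TMM-scaled CPM it varied more, with 2496, 1787 and 1984 in KO and 2131, 2447 and 2451 in WT. On that scale KO lay above WT at passage 2 and below it at passages 3 and 4. An antisense gene that overlaps Lrp1, Gm16217, had at most 13 counts in a library.

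The syndecans had similar totals in the 6 libraries, with a mix that differed by passage. Their summed TPM was 319, 377 and 402 in KO at passages 2, 3 and 4 and 356, 366 and 360 in WT. Sdc3, the syndecan known from neurons and muscle, had 93.8, 132 and 166 TPM in KO and 129, 132 and 140 TPM in WT. Sdc2, known from mesenchymal cells, had 31.4, 40.4 and 50.8 TPM in KO and 31.7, 29.3 and 33.7 TPM in WT. Both were higher at each later passage in KO. By TPM the ratio of passage 4 to passage 2 was 1.77 for Sdc3 in KO and 1.08 in WT, and 1.62 for Sdc2 in KO and 1.06 in WT. By TMM-scaled CPM Sdc2 was higher at each later passage in WT too. It had 66.1, 77.1 and 90.4 CPM in KO and 60.0, 66.8 and 71.3 CPM in WT. Sdc3 had 269, 340 and 407 CPM in KO and 345, 408 and 375 CPM in WT. Sdc4, a component of focal adhesions, had 92.7, 91.5 and 72.1 TPM in KO and 96.0, 111 and 71.6 TPM in WT, lowest at passage 4 in each genotype. Sdc1, known from epithelia, had 101, 113 and 114 TPM in KO and 98.6, 93.7 and 115 TPM in WT. The genotypes overlapped for all 4 syndecans.

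As shares of the syndecan total, Sdc3 was 29.4%, 34.9% and 41.2% in KO at passages 2, 3 and 4 and 36.4%, 36.0% and 38.9% in WT. Sdc4 made up 29.0%, 24.3% and 17.9% in KO and 27.0%, 30.4% and 19.9% in WT. Sdc1 contributed 28.2% to 31.7% in KO and 25.6% to 31.9% in WT, and Sdc2 9.85% to 12.6% in KO and 8.0% to 9.36% in WT. Epithelial markers, read beside Sdc1, summed to 5.11 to 14.7 TPM in KO and 1.41 to 21.1 TPM in WT over 8 genes. They were lowest at passage 4 in each genotype, and Epcam had at most 0.83 TPM. By TPM Sdc1 was highest at passage 4 in WT, whereas the KO libraries of passages 3 and 4 were nearly level (113.39 and 113.59). On the CPM scale the passage 4 value of Sdc1 was the lowest of the KO libraries (149.8) and the highest of the WT libraries (179.6). The part of epithelial cells in the Sdc1 level was not tested. Sdc1 and Sdc2 share 0.417% and 1.18% of their 64-base words with other genes, and the other 7 genes share none.

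**Figure D2:**
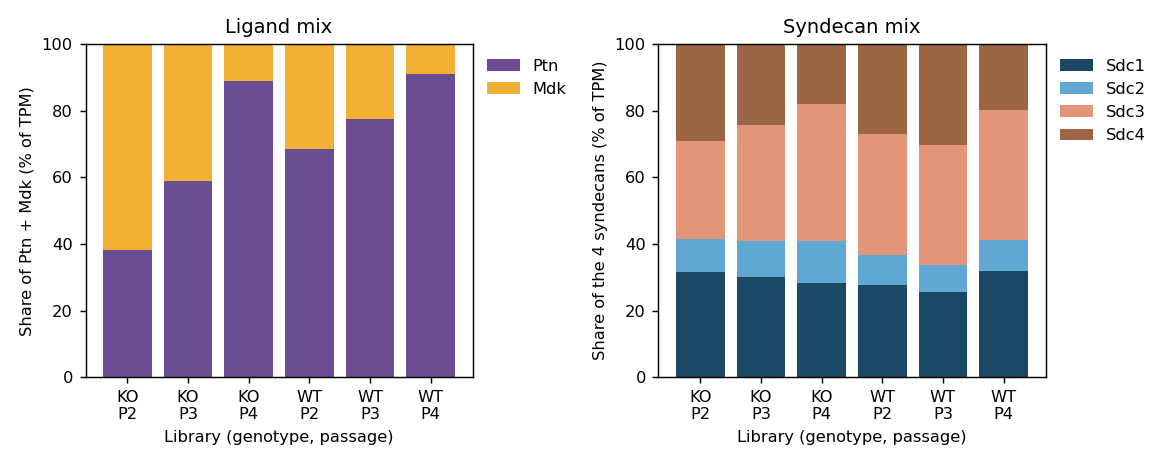
Left, shares of Ptn and Mdk in their summed TPM, and right, shares of the 4 syndecans in theirs, 1 bar per library with KO left of WT and passages 2, 3 and 4 marked P2, P3 and P4. The Ptn share reaches 88.9% in KO and 91.0% in WT at passage 4, and the Sdc4 share is smallest at passage 4 in each genotype.

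**Figure D3:**
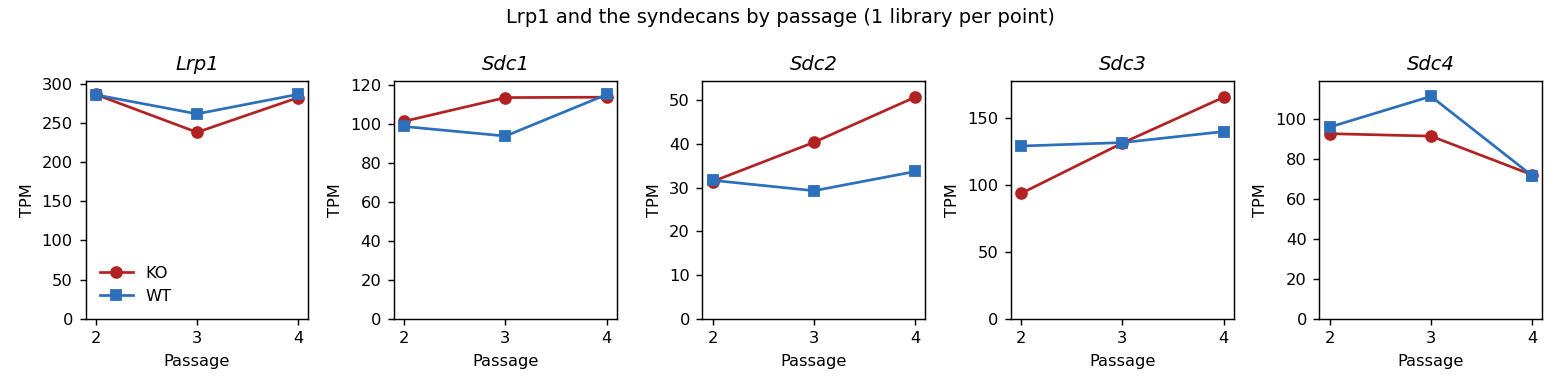
Levels of Lrp1 and the syndecans in TPM by passage, axes from 0, 1 library per point, with KO as red circles and WT as blue squares. Sdc2 and Sdc3 are higher at each later passage in KO, and Lrp1 stays between 238 and 287 TPM.

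By mean TPM over the 6 libraries the order was Ptn (392), Lrp1 (274), Sdc3 (132), Sdc1 (106), Sdc4 (89.2), Mdk (88.5), Sdc2 (36.2), Ptprz1 (16.4) and Alk (0.0533). The ranges over libraries separated Lrp1 from Sdc3, Mdk from Sdc2 and Ptprz1 from Alk. The other neighbours in this order overlapped, among them Sdc4 and Mdk. The place of Ptn rests on passage 4 and on WT. In KO the mean of Lrp1 (269 TPM) exceeded that of Ptn (250 TPM), and in KO at passage 2 Ptn lay below Lrp1, Sdc1, Sdc3, Sdc4 and Mdk.

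The comparison of genotypes, fitted over all genes with edgeR, put these differences beside their errors. Fitted changes are log2 of KO over WT from counts, with a standard error (SE) over the 3 libraries of each genotype. The change was -1.31 ± 0.94 SE for Ptn, whose spread over passages enters that error, and -0.51 ± 0.20 for Mdk. It was 0.32 ± 0.48 for Ptprz1, -0.17 ± 0.15 for Lrp1, -0.04 ± 0.11 for Sdc1, 0.24 ± 0.13 for Sdc2, -0.15 ± 0.16 for Sdc3 and -0.23 ± 0.22 for Sdc4. With passage as a block the Ptn change was -1.67 ± 0.23 SE, and the others moved by less. Over all genes 2.48% were called at an adjusted p under 0.05 (155 higher in KO, 0.934%, and 257 lower, 1.55%), and 11.1% with the block (778 higher, 4.69%, and 1057 lower, 6.37%). On log2(TPM + 1) with limma the split was 219 higher and 168 lower. Of the 16603 genes tested, 3543 had an unadjusted edgeR p under 0.05 without the block, and DESeq2 called 1661. Of the 8 genes, 0 were called by edgeR without the block, 1 had an unadjusted p under 0.05, and DESeq2 and limma called 0. With the block 1 was called, Ptn, lower in KO. The rule that chose these genes used this contrast, so nothing is read from these counts. Without the KO library of passage 4 the Ptn change was -2.97, and without the WT library of passage 4 it was -0.40. For Ptprz1 the sign turned without the KO library of passage 4 (-0.34).

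Along passages the change for each step of 1 passage, with genotype in the fit, was 1.42 ± 0.19 SE on the log2 scale for Ptn (2.68-fold) and 0.75 ± 0.10 for Ptprz1 (1.69-fold). It was 0.18 ± 0.07 for Sdc3, 0.18 ± 0.05 for Sdc2, 0.07 ± 0.06 for Sdc1, -0.04 ± 0.09 for Lrp1, -0.09 ± 0.11 for Mdk and -0.23 ± 0.12 for Sdc4. Over all genes 6.25% were called, 461 higher with passage (2.78%) and 577 lower (3.48%), and of the 8 genes Ptn and Ptprz1 were, both higher. DESeq2 called Ptn, Ptprz1 and Sdc2, and limma on TPM called Ptprz1. Over all 16603 genes tested DESeq2 called 1709 and limma on TPM 1229 with passage. This contrast was in view when the genes were chosen, and the count is given as a description. By TPM 3 of the 8 (Ptn, Ptprz1 and Sdc3) were higher at each later passage in both genotypes, as were 6.22% of all genes tested. By CPM 3 were (Ptn, Ptprz1 and Sdc2), against 9.47%. None of the 8 was lower at each later passage in both genotypes by TPM, against 5.82% of all genes. Without the KO library of passage 4 the Ptn slope was 1.09, the lowest value over the fits that left out 1 library.

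**Figure D4:**
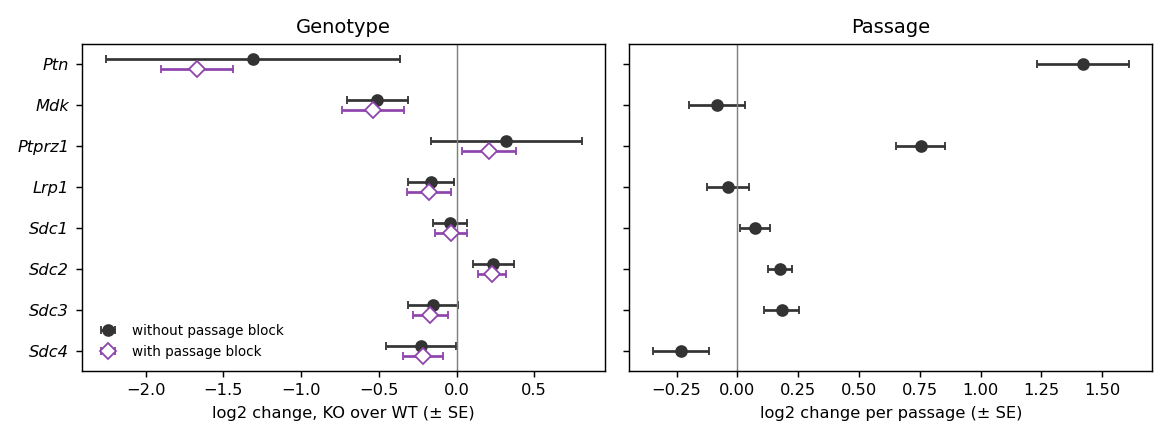
Fitted log2 changes of the 8 filtered genes, KO over WT on the left (filled circles without and open diamonds with passage as a block) and per passage on the right. Bars are 1 SE. Ptn and Ptprz1 stand apart along passage, at 1.42 and 0.75, and the block narrows the genotype error of Ptn.

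Summed marker transcripts of other cell types were lower at passage 4 than at passage 2 in each genotype. Macrophage markers (8 genes, all detected in every library) summed to 350, 117 and 61.1 TPM in KO and 502, 241 and 68.6 TPM in WT at passages 2, 3 and 4. Endothelial markers (8 genes) summed to 11.5, 9.16 and 7.54 TPM in KO and 10.2, 3.56 and 3.59 TPM in WT at passages 2, 3 and 4. Pecam1 and Cdh5 were lowest at passage 4 in each genotype, whereas Emcn had 1.54, 2.62 and 3.38 TPM in KO and 1.51, 1.18 and 1.39 TPM in WT. Kdr had 2.0, 1.9 and 2.35 TPM in KO and 1.57, 1.11 and 1.28 TPM in WT. Cldn5 and Tie1 were listed at 0 TPM in both libraries of passage 4. The 10 fibroblast markers summed to 11983 to 13759 TPM in KO and 17555 to 22802 TPM in WT, without overlap. Singly they differed in direction. Col1a1, Col1a2, Col3a1, Pdgfra, Dcn and Lum were lower in KO without overlap, and Pdgfrb, Thy1 and Fn1 overlapped. Vim was higher in KO without overlap, with 2809, 2978 and 2940 TPM, against 2640, 2048 and 2457 TPM in WT. The part of fibroblast content in the genotype comparison was not tested. The part of the other cell types in the passage slopes of Ptn and Ptprz1 was not tested either.

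The slopes were compared between genotypes in an interaction fit with 2 residual degrees of freedom. The KO slope minus the WT slope was 0.37 ± 0.34 SE for Ptn, 0.28 ± 0.18 for Ptprz1, 0.24 ± 0.12 for Sdc3, 0.10 ± 0.10 for Sdc2, -0.38 ± 0.19 for Mdk, -0.27 ± 0.15 for Lrp1, -0.21 ± 0.10 for Sdc1 and -0.15 ± 0.24 for Sdc4. edgeR called 0 of the 8, with 0 at an unadjusted p under 0.05, and DESeq2 and limma also called 0. Over all genes edgeR called 0 (0.0%), with 1137 at an unadjusted p under 0.05, DESeq2 called 83 and limma 2. The 8 genes were chosen with their values in these libraries known, so nothing is read from their counts here. Their slopes were shown neither to differ between KO and WT nor to be alike.

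The mean transcript length that RSEM reports for a gene shifts when the mix of its transcripts shifts, and it was not used to choose the genes. For Ptn it was 1617 ± 0.604 bases in KO and 1618 ± 2.23 bases in WT (SD, n = 3 each), and for Mdk 777 ± 0.753 and 777 ± 0.873 bases. Over the 6 libraries the Ptn level varied 18.3-fold and its length by 0.256% of the mean. For Ptprz1 the length was 5039 ± 48.8 bases in KO and 5053 ± 9.94 bases in WT. KO and WT overlapped for Ptn, Mdk, Ptprz1, Lrp1, Sdc1, Sdc3 and Sdc4 (exact permutation test, 2-sided, p from 0.2 to 0.9, adjusted p = 0.9 for each, smallest possible p = 0.1). Sdc2 has 1 transcript and was not compared. Alk entered the adjustment, but its length rests on 1 to 9 counts in a library and is not read.

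The genes whose log2 CPM followed Ptn most closely over the 6 libraries, among 10736 protein-coding genes of at least 2 log2 CPM, were Lrrn3, Ogdhl, Tk2, Pcdhga7 and Gpc6. Their Pearson r lay between 0.989 and 0.991. Lrrn3, a leucine-rich repeat neuronal protein gene, had 1.56, 2.49 and 7.92 TPM in KO and 3.34, 4.54 and 10.5 TPM in WT at passages 2, 3 and 4. Gpc6, a glypican that itself carries heparan sulfate, had 27.8, 31.9 and 55.7 TPM in KO and 43.3, 42.7 and 61.6 TPM in WT. The order of the libraries for Gpc6 resembled that for Ptn over a much smaller range. For Mdk the nearest were Sik1, Rtraf, Phpt1, Mrpl24 and Mdp1, with r from 0.962 to 0.984. Between the genes described here, r with Ptn ran from -0.36 for Sdc4 to 0.81 for Sdc3, with 0.69 for Ptprz1 and 0.34 for Mdk. The r with Mdk ran from -0.67 for Sdc2 to 0.94 for Lrp1. These correlations describe 6 libraries that share depth and scaling, and those of the nearest genes were the highest of many.

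Other genes of the pathway came from 7 lists with 113 genes, of which 104 were tested. Between genotypes 1 gene rose and 4 fell in KO by edgeR, and with passage as a block 10 rose and 19 fell. Over all genes tested 2.48% were called without the block and 11.1% with it. The median change over the 104 was -0.12, against -0.01 over all genes. Timp3, an inhibitor of the metalloproteases that shed syndecans, had 184, 148 and 197 TPM in KO and 362, 261 and 385 TPM in WT at passages 2, 3 and 4 (log2 -1.04 ± 0.16 SE, edgeR adjusted p = 0.0257). All KO libraries lay below all WT libraries. Tgfbr3, betaglycan, which carries heparan and chondroitin sulfate, fell to 91.4 ± 5.45 TPM in KO, against 143 ± 4.98 TPM in WT (SD, n = 3 each, log2 -0.75, edgeR adjusted p = 0.0245). Csgalnact1, which starts chondroitin sulfate chains, fell to 37.8 ± 1.82 TPM in KO, against 67.1 ± 6.35 TPM in WT (log2 -0.87, edgeR adjusted p = 0.0187). Nfasc, a cell adhesion gene for neurofascin, fell to 0.567 ± 0.0814 TPM in KO, against 1.73 ± 0.518 TPM in WT (log2 -1.69, edgeR adjusted p = 0.0214). Plau, the gene for urokinase, a plasminogen activator, rose to 58.0 ± 6.7 TPM in KO, against 26.4 ± 2.41 TPM in WT (log2 1.02, edgeR adjusted p = 0.0146). Grouping by the genotype tag ended all 5 calls (edgeR adjusted p from 0.872 to 0.886). Leaving out the KO or the WT library of passage 3 also ended all 5 (edgeR adjusted p from 0.0791 to 0.156). Without the WT library of passage 2 the calls of Nfasc, Plau, Csgalnact1 and Timp3 ended, without the KO library of passage 4 those of Nfasc, Tgfbr3 and Timp3, and without the KO library of passage 2 that of Tgfbr3.

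By list, beside the same shares of 2.48% without and 11.1% with the block over all genes, 0 of 16 other binding partners (such as Ncl, the integrins, Nrp1 and Vcan) were called between genotypes, with a median log2 change of 0.00. Over all 16603 genes tested, 3543 had an unadjusted edgeR p under 0.05, DESeq2 called 1661 and limma 387. Of these 16 partners 5 had an unadjusted edgeR p under 0.05, and DESeq2 and limma called 0. With the block 5 rose (Ncl, Itga4, Itga6, Lrp2 and Lrp8) and 2 fell (Vcan and Agrn). Of 11 partners of ALK and PTPRZ1, 1 fell (Nfasc), with or without the block, and of 16 partners of LRP1, 1 rose (Plau). With the block Apbb1, A2m and Lrp5 fell. None of 24 linker and heparan sulfate enzymes was called by edgeR or limma, with 6 at an unadjusted p under 0.05 and 4 called by DESeq2, and with the block 3 fell (Hs6st1, Sulf1 and Hpse). Of 15 chondroitin sulfate enzymes 1 fell (Csgalnact1), and with the block 5 fell (Csgalnact1, Chsy3, Chst15, Dse and Dsel). Of 8 other heparan sulfate proteoglycans 1 fell (Tgfbr3), and with the block 3 did (Gpc3, Gpc6 and Tgfbr3). Of 14 syndecan partners and shedding genes 1 fell (Timp3), and with the block 3 rose (Sdcbp2, Actn1 and Mmp9) and 2 fell (Mmp2 and Timp3). The medians of the last 6 lists were 0.07, -0.21, 0.02, -0.23, -0.23 and 0.03 in that order. The ALK ligand genes were low, with Alkal1 at 1.75, 3.1 and 4.14 TPM in KO and 0.78, 3.45 and 3.07 TPM in WT, and Alkal2 at most 0.06 TPM.

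Along passages 4 of the 104 genes rose and 5 fell by edgeR, against 6.25% of all genes called. Enzymes of sulfated sugar chains and proteoglycans were among the genes that rose and among those that fell. Sulf2, an extracellular enzyme that removes sulfate from heparan sulfate, had 52.0, 60.5 and 106 TPM in KO and 64.5, 55.5 and 114 TPM in WT (log2 0.43 ± 0.10 SE per passage, edgeR adjusted p = 0.0492). Its level was highest at passage 4 in both genotypes. Gpc6 (log2 0.34), Chpf2, a chondroitin chain polymerising factor (log2 0.32), and Hs3st3a1, a heparan sulfate 3-O-sulfotransferase (log2 0.52), rose with edgeR adjusted p of 0.0392, 0.0264 and 0.0329. Apoe, an LRP1 ligand that macrophages also make, fell and had 98.0, 34.0 and 26.4 TPM in KO and 106, 46.0 and 23.2 TPM in WT (log2 -1.05, edgeR adjusted p = 0.00302). The macrophage markers given above were lower at later passages over the same libraries, and their part in the Apoe slope was not tested. Itga6, a laminin receptor subunit (log2 -0.48), and Col18a1 (log2 -0.31) fell with edgeR adjusted p of 0.00623 and 0.0159. Chst3, a chondroitin 6-O-sulfotransferase (log2 -1.13), and Ncan, the proteoglycan neurocan (log2 -1.84), fell with edgeR adjusted p of 0.0145 and 0.00361, and neither exceeded 0.82 TPM in a library. Apoe alone kept its call in all 6 fits that left out 1 library. Without the WT library of passage 2 the other 8 calls ended, and without the KO library of passage 2 or 4 those of Hs3st3a1, Sulf2, Chst3, Chpf2, Gpc6 and Col18a1. Without the KO library of passage 3 those of Hs3st3a1, Sulf2 and Chpf2 ended, and without the WT library of passage 4 those of Hs3st3a1, Sulf2, Chst3, Gpc6 and Col18a1. With RLE size factors the Sulf2 call ended (edgeR adjusted p = 0.0513). On log2(TPM + 1) with limma those of Ncan (log2 -0.19, adjusted p = 0.0699), Hs3st3a1 (adjusted p = 0.0683) and Col18a1 (adjusted p = 0.121) ended. No gene of the 104 was called in the interaction fit by edgeR, DESeq2 or limma, with 3 at an unadjusted edgeR p under 0.05. Over all 16603 genes tested, 1137 had an unadjusted edgeR p under 0.05 in that fit.

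**Figure D5:**
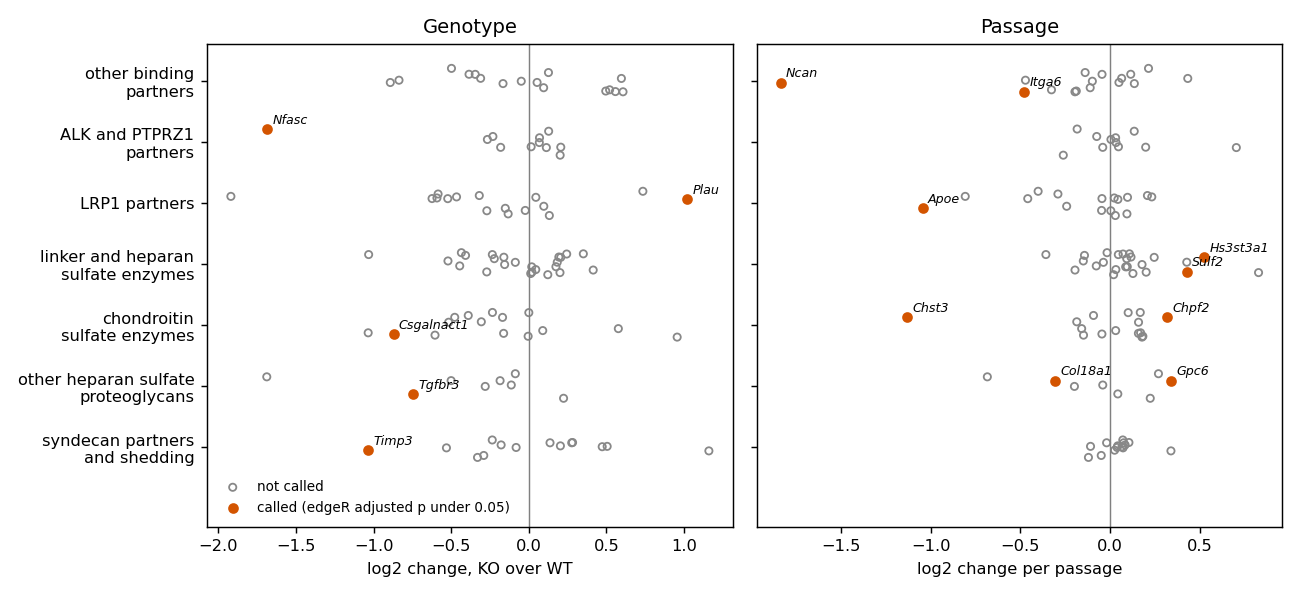
Fitted log2 changes of the 104 tested pathway genes by list, KO over WT on the left and per passage on the right, 1 circle per gene. Filled circles are the 5 genes called between genotypes and the 9 called with passage (edgeR, adjusted p under 0.05).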

How the data were processed

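Gene-level tables of 6 libraries were used. The submitters' processing notes name Trimmomatic 0.39, a read trimmer, RSEM, which estimates counts, and build GRCm38. No source used here gives the RSEM version, aligner, annotation release or strand handling. The authors' deposited tables hold expected counts, TPM, FPKM (not tested) and lengths in bases. RSEM shares ambiguous reads among genes, so 12.0% to 15.8% of the expected counts were not whole. They were rounded. Symbols and coordinates came from GENCODE M21, which matched 99.5% of gene IDs, and promoters from RefSeq (GRCm38.p6).

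With TMM scaling, edgeR 4.0.16 in R 4.3.3 gave robust 2-sided quasi-likelihood tests after a filter at a minimum count of 10, which left 16603 genes. Benjamini-Hochberg adjusted p-values under 0.05 were called. SE is the log2 change over the root of its F statistic. The genotype fit held genotype alone. The passage fit held genotype and a linear passage slope. The alternatives were DESeq2 1.42.0, RLE size factors, no filter, limma 3.58.1 on log2(TPM + 1), leaving out each library, the genotype tag, and passage as a block. Libraries of the same passage deviated together from their genotype means over 16603 genes (r = 0.488, 0.137 and 0.416 at passages 2, 3 and 4), so the block pairs them. No libraries held the same values. The genes and pathway lists were chosen with earlier results of these data known. Pathway genes called by edgeR are named, up to 5 per list and fit by size of change, together with the 5 genes nearest in pattern to Ptn and to Mdk. The result of 1 pathway gene is not reported here.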

Additional observations from a re-analysis of the deposited data

How the results depend on the processing

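The counts of called genes depended on the setting. Between genotypes 412 genes were called, against 1661 by DESeq2, 846 without a filter, 1835 with passage as a replicate block, 0 by the genotype tag (1 KO library against 5 WT) and 38 to 847 when 1 library was left out. With passage 1038 were called, against 1709 by DESeq2, 2443 without a filter and 278 to 1286 with 1 library left out. The interaction fit called 0, against 83 by DESeq2, 289 without a filter, 2 by limma and 0 to 10 with 1 library left out. Of the pathway genes 5 were called between genotypes, against 19 by DESeq2, 10 without a filter, 29 with the replicate block, 0 by the tag and 0 to 10 with 1 library left out. With passage 9 were, against 24 by DESeq2, 27 without a filter and 2 to 19 with 1 library left out. The number of genes of the set whose KO and WT transcript lengths did not overlap was 0, and 0 to 2 with 1 library left out. These counts include Alk and leave out Sdc2, which has 1 transcript. Non-overlap in level was found for 1 gene by TPM and 0 by CPM, an alternative chosen after seeing the data. The causes of these differences were not tested. Leaving out a library also lowers the residual degrees of freedom, and the genotype and passage counts then moved in both directions. No call of a named pathway gene reversed its direction, and neither did the passage slopes of Ptn and Ptprz1. The directions of the other called genes were not followed across settings. The replicate block ended none of the 5 pathway calls between genotypes.

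The Ptn change between genotypes stayed negative under 12 of 12 alternatives (-2.97 to -0.40), and its slope positive under 10 of 10 (1.09 to 1.56). Ptprz1 kept a positive slope under 10 of 10 (0.59 to 0.89). These alternatives refit the same 6 libraries, whose values were known when the genes were chosen. The kept signs are therefore a description and not independent support. The genotype tag turned the genotype signs of Mdk, Ptprz1, Lrp1, Sdc2 and Sdc4. On the TPM scale the median interaction over all genes was 0.15, against 0.02 by edgeR. Counts for Alk limit it to a statement of low level.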
